A study of Mus musculus with 3 samples.

Results

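The hair shaft cells of mouse dorsal skin were described from droplet single-cell RNA sequencing (Chromium GEM-X 3' v4) of 3 libraries, 1 per group. All 3 came from pooled skin of 9-week-old female C57BL/6 mice, cut from the area that had been depilated with wax strips, so the controls were depilated too. Cont is the vehicle control, CIA is a model of chemotherapy-induced alopecia (hair loss caused by cancer drugs), and CIA+VFX is that model given venlafaxine, an antidepressant that blocks the reuptake of serotonin and noradrenaline. The chemotherapy agent, the doses, the day of sampling and the number of mice in a pool are not given in the labels. Because each group is 1 pooled library, no test between groups was possible. Every interval below is a 95% interval that covers counting error only, and a difference between libraries need not be one between treatments.

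The cells were chosen by their own transcripts. A barcode was taken as a hair shaft cell if it had at least 500 genes, at most 15% mitochondrial UMIs (unique molecules counted), at least 10 UMIs summed over the hair keratins Krt35, Krt31, Krt33a, Krt34 and Krt86, fewer than 20 UMIs summed over the inner root sheath keratins Krt25, Krt27, Krt28, Krt71 and Krt73, no UMI of the leukocyte gene Ptprc and at most 1 of the fibroblast gene Col1a2. This left 301 of 45846 kept barcodes (51191 in all): 106 in Cont, 62 in CIA and 133 in CIA+VFX. No cell barcode was shared between the members of different libraries. Levels of the keratins in the rule, and levels set against inner root sheath cells, are therefore descriptions and support nothing.

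In the growing hair bulb, dividing matrix cells around the dermal papilla move upward and enter concentric layers: the medulla, cortex and cuticle of the shaft, and the inner root sheath that moulds it. Shaft precursors respond to Wnt signals through Lef1 and need BMP signals and the homeobox factor Hoxc13 to switch on hair keratins. Type I and type II hair keratins pair into filaments, which the keratin associated proteins (KAPs, encoded by Krtap genes) later cross-link. Krt35 comes on early in precortex and cuticle, Krt31 and Krt33a higher up in the cortex, and Krt32 and Krt82 in the cuticle.

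The letters just before the start of 4 late shaft genes are shown first. They are 2 genes of the cortex (Krt31 and the KAP gene Krtap8-1) and 2 of the cuticle (Krt32 and Krt82). These genes are used below, but no difference between cells or libraries was tied to these letters. The sequences are the 250 bases before the RefSeq start in GRCm38.p6, read 5' to 3' in the direction of the gene (all on the minus strand): Krt31 at chr11:100050552-100050801, Krtap8-1 at chr16:89487953-89488202, Krt32 at chr11:100088270-100088519 and Krt82 at chr15:101550660-101550909. Capitals mark CTTTGAA or CTTTGAT, letters that LEF/TCF factors are known to bind, searched on both strands.
Krt31: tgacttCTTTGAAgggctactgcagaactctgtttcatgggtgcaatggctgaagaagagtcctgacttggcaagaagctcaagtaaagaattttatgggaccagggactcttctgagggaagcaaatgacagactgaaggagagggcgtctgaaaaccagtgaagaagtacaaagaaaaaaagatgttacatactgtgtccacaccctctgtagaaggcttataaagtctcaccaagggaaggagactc
Krtap8-1: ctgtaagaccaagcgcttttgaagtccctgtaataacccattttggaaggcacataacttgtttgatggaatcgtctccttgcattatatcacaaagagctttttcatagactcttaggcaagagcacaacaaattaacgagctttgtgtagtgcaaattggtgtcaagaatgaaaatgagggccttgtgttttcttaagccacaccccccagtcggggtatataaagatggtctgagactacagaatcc
Krt32: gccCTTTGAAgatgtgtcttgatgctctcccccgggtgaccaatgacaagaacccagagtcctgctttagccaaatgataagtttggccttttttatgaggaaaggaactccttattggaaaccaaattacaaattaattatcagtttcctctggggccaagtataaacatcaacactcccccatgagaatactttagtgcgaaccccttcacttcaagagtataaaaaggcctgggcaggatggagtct
Krt82: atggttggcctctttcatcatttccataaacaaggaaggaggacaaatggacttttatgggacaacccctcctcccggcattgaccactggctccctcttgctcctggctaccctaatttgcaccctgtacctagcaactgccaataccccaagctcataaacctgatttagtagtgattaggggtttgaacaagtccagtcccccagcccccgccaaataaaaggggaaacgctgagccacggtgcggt
The LEF/TCF letters lay 244 to 238 bases before the start of Krt31 and 247 to 241 before that of Krt32, and were not found in the windows of Krtap8-1 and Krt82. TATAAA, the letters of a TATA box, lay 29 to 24 bases before the start of Krt31, Krtap8-1 and Krt32 (in Krt32 also 88 to 83 bases before), and was not found in that of Krt82. Of 32851 promoters of this length, 2457 (7.48%) held the LEF/TCF letters and 4063 (12.4%) held TATAAA. Of the 9 hair keratin promoters in the table, 5 (55.6%: Krt31, Krt32, Krt33b, Krt34 and Krt39) held the first and 6 (66.7%) the second. Of 51 KAP promoters, 10 (19.6%) held the LEF/TCF letters and 41 (80.4%) held TATAAA. A match of letters is a description of the window and not a binding site.

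The label was met by part of its markers. Krt35 had a UMI in 97.2%, 93.5% and 97.7% of the members of Cont, CIA and CIA+VFX, at 4135, 4042 and 3317 CPM (UMIs scaled to a total of 1000000, summed over the members of a library). Krt31 was found in 22.6%, 25.8% and 36.1% of members, and Krt86 in 0, 1 and 2 cells. Leukocyte barcodes, which should lack hair keratins, had a UMI of Krt35 in 3.07%, 1.39% and 4.74% of cases at median depths of 6362, 5612 and 5496 UMIs. Lef1, which the rule did not use, had a UMI in 94.3%, 91.9% and 96.2% of members (827, 852 and 896 CPM), against 9.14%, 7.05% and 10.9% of leukocyte barcodes. Hoxc13 had one in 79.2%, 74.2% and 85.7% (258, 309 and 313 CPM), against 1.21%, 0.711% and 1.85% of leukocyte barcodes. The keratin shares follow from the rule, whereas Lef1 and Hoxc13, both genes of shaft precursors, were read in most members.

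The median depth of a member was 14914 UMIs in Cont, 10830 in CIA and 10820 in CIA+VFX, and 4 members of CIA+VFX with more than 50000 UMIs held 16.3% of that library's shaft UMIs. The limit of 10 keratin UMIs cut through a continuum: 22, 19 and 39 barcodes had 5 to 9 UMIs, with Krt35 at 610, 1016 and 613 CPM, and 15, 9 and 23 members had 10 to 14, with Krt35 at 918, 2122 and 1253 CPM. The limit on inner root sheath keratins removed 39, 9 and 16 barcodes. Markers of other cells were low: summed leukocyte markers stood at 63.4, 48.8 and 29.1 CPM, fibroblast markers at 84.5, 74.5 and 50.1 CPM and melanocyte markers at 46.3, 29.8 and 45.0 CPM. Endothelial and suprabasal lists were uneven between libraries: endothelial markers (76.3, 16.3 and 29.1 CPM, with 51.5% of the Cont UMIs in 1 cell) and suprabasal epidermal markers (18.2, 31.2 and 1420 CPM, with 70.8% of the CIA+VFX UMIs in 1 cell). The doublet calls took in 3, 4 and 8 members.

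Among themselves the shaft cells were sorted by keratin limits into cortex cells, cuticle cells and a larger set below both limits. With at least 2 UMIs of Krt31 and Krt33a taken as cortex and at least 2 of Krt32 and Krt82 as cuticle, limits set after the values were seen, 76 of the 301 members were cortex cells, 24 were cuticle cells, 2 met both and 199 met neither. Some cells of the last set still held many Krtap UMIs, such as 136 in 1 Cont cell. The plot of both sums shows the 2 cells with both programs, of which 1 was the deepest member, at 96975 UMIs. With only 24 cuticle cells, few such cells could be seen. Whether 2 is fewer than the shares of the kinds would give was not tested. Cortex cells made up 18.9% (11.9 to 27.6) of members in Cont, 22.6% (12.9 to 35.0) in CIA and 31.6% (23.8 to 40.2) in CIA+VFX. Cuticle cells made up 8.49%, 8.06% and 7.52%. These intervals overlap between all 3 libraries. After each member was thinned to 3000 UMIs, a cortex keratin UMI without a cuticle keratin UMI was left in 15%, 15.5% and 21.1% of cells, with 6, 4 and 19 shallower members left out. The shallow members differed in kind: 3 in Cont, 3 in CIA and 16 in CIA+VFX had fewer than 3000 UMIs and at least 20 Krtap UMIs, all of them cortex cells, with Krtap genes at 14.4%, 10.2% and 4.80% of their UMIs. Among members of at least 3000 UMIs, cortex cells made up 18%, 19% and 22.8%, so the shallow cells supply much of the higher share in CIA+VFX. These limits were also set after the values were seen.

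**Figure D1:**
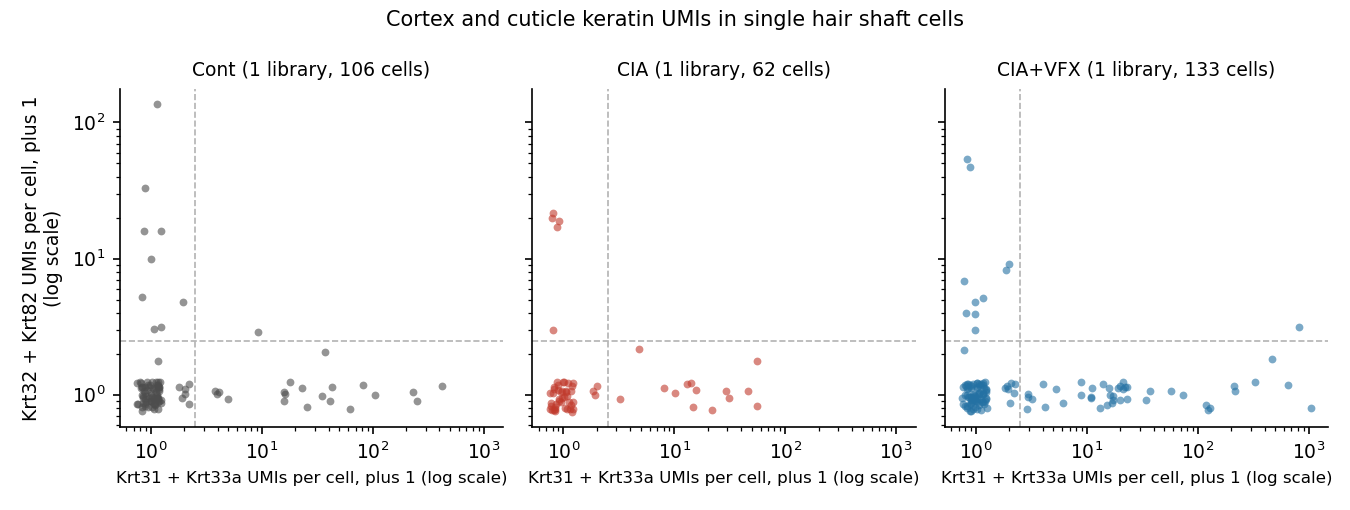
UMIs of the cuticle keratins Krt32 and Krt82 against UMIs of the cortex keratins Krt31 and Krt33a in each of the 301 hair shaft cells (log axes of UMIs + 1, points jittered, colour by library, dashed lines at the limit of 2 UMIs). Most cells above a limit lie along 1 axis or the other, 199 sit below both limits, and 2 lie above both.

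The cortex cells carried the late shaft program. Over all 3 libraries, genes far above their level in cells of neither kind were the keratins Krt83 (1356 against 11.6 CPM) and Krt87 (483 against 0 CPM), the KAP genes Krtap11-1 (1982 against 24.7 CPM), Krtap7-1 (6225 against 151 CPM) and Krtap8-1 (9942 against 229 CPM), and Gprc5d, an orphan receptor of hard-keratinizing cells (1012 against 10.1 CPM). Mt4, a metallothionein of stratified epithelia, stood at 5542 CPM in cortex and 78.1 CPM in cuticle cells. Summed KAP transcripts reached 17095, 11129 and 22696 CPM in the cortex cells of Cont, CIA and CIA+VFX, against 591, 536 and 371 CPM in cells of neither kind. Krt35 and Lef1 did not set the kinds apart in the same way: Lef1 stood at 1035, 1836 and 1036 CPM in cortex cells, 819, 692 and 912 CPM in cells of neither kind, and 189, 219 and 223 CPM in cuticle cells. The cuticle cells were the ones low in Lef1, in each library.

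The cuticle cells had a program of their own. S100a3, a calcium-binding protein of the hair cuticle, stood at 46138, 72669 and 19612 CPM in them, against 4949, 3641 and 7420 CPM in cortex cells and 943, 1227 and 1093 CPM in cells of neither kind. Sox21, a transcription factor needed for a sound hair cuticle, stood at 532, 383 and 502 CPM against 0, 0 and 1.38 CPM in cortex cells. Padi3, which converts arginine to citrulline in hair proteins, stood at 357, 602 and 418 CPM in cuticle cells. All 3 genes were highest in the cuticle cells of every library. Over all libraries, the surface proteins Ly6g6g (504 against 2.6 CPM in cells of neither kind) and Vsig8 (851 against 9.0 CPM), the crystallin Cryba4 (843 against 21.3 CPM) and the transcription factor Sox5 (1866 against 116 CPM) were among the 20 leading cuticle genes. The ligand genes Bmp4 (175, 274 and 123 CPM) and Wnt10b (87.5, 54.7 and 72.5 CPM) were also read in these cells. The 24 cuticle cells are few, and single cells hold much of some values: 1 cell gave 60.8% of the Krt32 and Krt82 UMIs in Cont.

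Cells of neither kind had higher summed levels of proliferation transcripts than cortex cells. Mki67, a marker of cycling cells, stood at 94.4, 102 and 106 CPM in them against 5.2, 15.9 and 11 CPM in cortex cells. Summed G2/M transcripts stood at 2139, 2436 and 2581 CPM against 1226, 922 and 1059 CPM in cortex cells, and summed S phase transcripts at 889, 1067 and 885 CPM against 404, 278 and 370 CPM. The chromatin protein Hmgb2 (409 against 79.3 CPM) and the tubulin regulator Stmn1 (212 against 25.1 CPM) followed the same order over all libraries. Few cells made much of these sums: the top 4 cells of neither kind held 32.3%, 48.1% and 37.4% of their G2/M UMIs, at medians of 23, 16 and 16 UMIs a cell. After thinning to 2000 UMIs, the share of cells with at least 2 G2/M UMIs was 81.6%, 73.8% and 78.5% in cells of neither kind and 73.7%, 72.7% and 73.3% in cortex cells, with overlapping intervals. Notch1, a receptor that acts in the bulb, stood at 453, 481 and 490 CPM in cells of neither kind and at 175, 310 and 197 CPM in cortex cells.

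**Figure D2:**
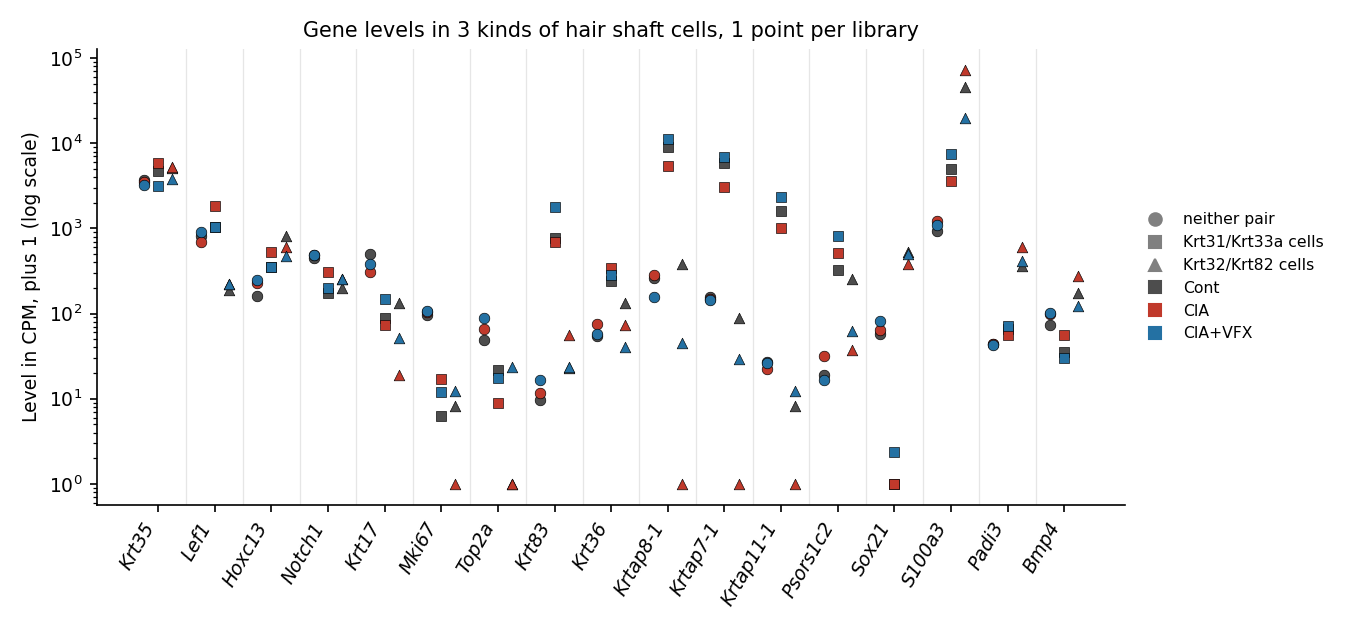
Level of 17 named genes (CPM + 1, log axis) in the cortex, cuticle and remaining hair shaft cells of each library, with marker shape for the kind of cell and colour for the library. Krtap and Krt83 values separate the cortex cells, S100a3 and Sox21 the cuticle cells and Mki67 the remaining cells, in all 3 libraries.

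Set against the 2431 inner root sheath cells of the same libraries (1071, 420 and 940), which neighbour the shaft in the bulb, the members differed well beyond the keratins that chose them. Dapl1, a gene of early epithelial differentiation, stood at 4103, 3143 and 4627 CPM against 73.8, 64.2 and 74.9 CPM in the sheath. Hephl1, a copper-dependent ferroxidase that hair needs for a normal shape, stood at 165, 194 and 339 CPM against 1.25, 0.94 and 2.70 CPM. Tagln3, an actin-associated protein, stood at 102, 92.1 and 207 CPM against 0.68, 0.54 and 1.03 CPM, and the keratin Krt36 at 101, 119 and 143 CPM against 1.7, 1.5 and 1.8 CPM. These genes are among the 20 with the highest smallest log2 ratio of shaft over sheath in the 3 libraries. A gap in every library was thus fixed by that choice. Lef1 was also higher in the shaft (86.5, 81.9 and 93.5 CPM in the sheath), whereas Gata3, which directs inner root sheath fate, stood at 7.63, 10.8 and 22.5 CPM in the shaft and between 87 and 105 CPM in the sheath. These contrasts have no test, since the same counts set the groups.

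The CIA library held fewer hair shaft cells than the other libraries. Members were 0.839% (0.687 to 1.01) of kept barcodes in Cont, 0.374% (0.287 to 0.479) in CIA and 0.800% (0.670 to 0.947) in CIA+VFX. The ratio of shares was 0.446 (0.321 to 0.616) for CIA against Cont, 2.14 (1.57 to 2.94) for CIA+VFX against CIA and 0.953 (0.733 to 1.24) for CIA+VFX against Cont. As a share of keratinocyte barcodes, the values were 4.06%, 2.41% and 3.25%, with ratios of 0.594 (0.427 to 0.820), 1.35 (0.990 to 1.85) and 0.801 (0.616 to 1.04). On that denominator the interval of CIA+VFX against CIA reached below 1. Digestion and Percoll separation decide which cells enter a suspension, and their part in these shares was not tested.

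Inner root sheath cells were 8.47%, 2.53% and 5.65% of kept barcodes, so the sheath share was lower in CIA by a larger factor than the shaft share. There were 9.90 shaft cells per 100 sheath cells in Cont, 14.8 in CIA and 14.1 in CIA+VFX. The ratio of shaft to sheath cells was 1.49 (1.07 to 2.06) times that of Cont in CIA and 1.43 (1.1 to 1.86) times in CIA+VFX, and 0.958 (0.704 to 1.32) times that of CIA in CIA+VFX. Barcodes with at least 10 hair keratin UMIs and at least 20 sheath keratin UMIs, 30, 9 and 14 of them, were counted as sheath cells. The part of that choice in these ratios was not tested.

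**Figure D3:**
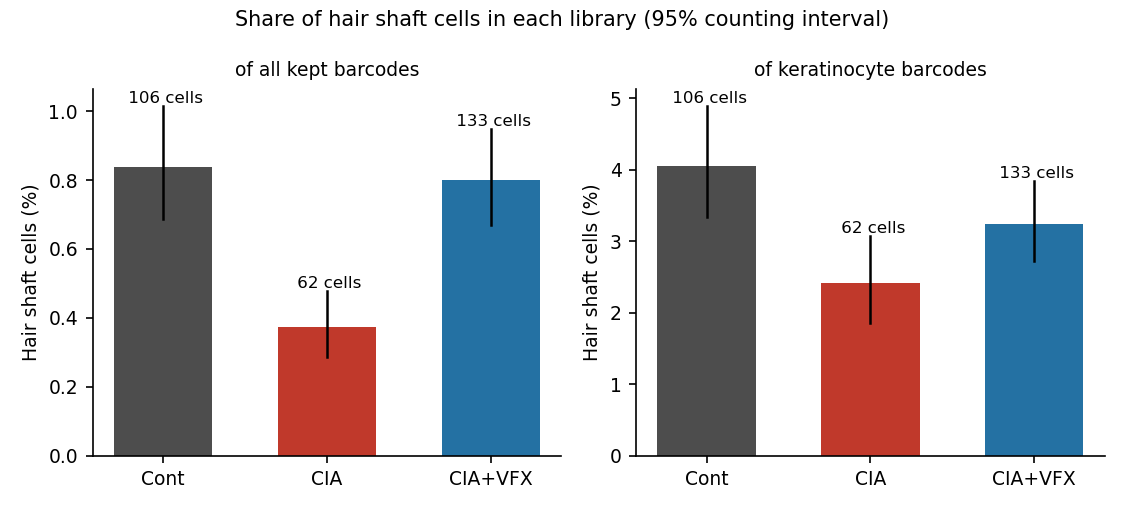
Hair shaft cells as a percentage of kept barcodes (left) and of keratinocyte barcodes (right) in each library, with 95% exact binomial intervals, which cover counting error only. The CIA bar is the lowest in both panels, at 0.374% and 2.41%.

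In CIA against Cont, the shaft cells had more transcripts of BMP response genes and fewer of the late cortex genes. Over 6134 genes with at least 50 UMIs in the 2 libraries together, 355 (5.79%) stood 1.5-fold or more above Cont and 516 (8.41%) as far below it, with a median log2 ratio of 0.01. Of the 19 genes in the BMP list, 14 were measured. Of these, 5 were at least 1.5-fold higher, none lower, and the median log2 ratio was 0.45. Those 5 were the targets Id1 and Id3, the inhibitory Smads Smad6 and Smad7, and the ligand Bmp8a. The ligand Bmp2, at a log2 ratio of -1.08, was not among the 14, because its UMIs fell below the limit of 50.

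Id3, an inhibitor of helix-loop-helix factors that BMP signals induce, stood at 516 CPM in Cont, 1016 in CIA and 509 in CIA+VFX. Its log2 ratio was 0.98 (0.84 to 1.12) for CIA against Cont and -1.0 (-1.13 to -0.86) for CIA+VFX against CIA. CIA alone was high, and Cont and CIA+VFX differed by -0.02 (-0.15 to 0.11) on the log2 scale. Id3 was spread over the cells: a UMI was read in 84.0%, 83.9% and 71.4% of members, and the top cell held 6.8%, 7.6% and 5.2% of its UMIs. Id1, a related target, stood at 324, 546 and 427 CPM, with log2 ratios of 0.75 (0.56 to 0.94), then -0.35 (-0.53 to -0.18). Id2 stood at 358, 489 and 342 CPM, with log2 ratios of 0.45 and -0.52. All 3 Id genes were thus highest in CIA, though Id2 did not reach 1.5-fold against Cont.

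Among the feedback inhibitors, Smad6 stood at 47.5, 84.0 and 50.1 CPM (log2 ratios 0.82, 0.32 to 1.32, then -0.75, -1.22 to -0.26). Smad7 stood at 127, 192 and 184 CPM (0.60, then -0.06), so it was about as high in CIA+VFX as in CIA. Bambi, a decoy receptor, stood at 208, 285 and 202 CPM (0.45, then -0.49). Among the ligands, Bmp8a stood at 39.3, 78.6 and 46.0 CPM (1.0, then -0.77) and Bmp4 at 71.6, 104 and 71.5 CPM (0.54, then -0.54). Bmp2 went the other way, at 22.9, 10.8 and 60.8 CPM, from only 8 UMIs in CIA. The receptor Bmpr1a (193, 213 and 195 CPM, log2 ratios 0.14 and -0.12) and the effector Smad4 (log2 ratio 0.22) stayed within 1.5-fold, as did Id2, Bambi and Bmp4 in CIA against Cont.

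The same list had other values in neighbouring cells. In inner root sheath cells the median log2 ratio of CIA against Cont was -0.09 over 16 measured genes, none of them at least 1.5-fold higher and 1 lower. In the other keratinocyte barcodes it was -0.37 over 18 genes, with 3 higher and 6 lower. For Id3 the sheath levels were 533, 639 and 615 CPM and the levels in other keratinocyte barcodes 495, 399 and 287 CPM. Id2 in those other barcodes was lower in CIA, at 675, 297 and 345 CPM. In the shaft members that held no UMI of Krt31 or Krt33a the median was 0.44, with 5 genes higher and 1 lower, so the higher values were also present among members without these cortex keratins. Among members with at least 50 keratin UMIs the log2 ratios of CIA against Cont were below 1.5-fold, at 0.38 for Id3, 0.19 for Id1 and 0.48 for Ovol1, a factor described next. The difference between the cell groups was not tested.

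**Figure D4:**
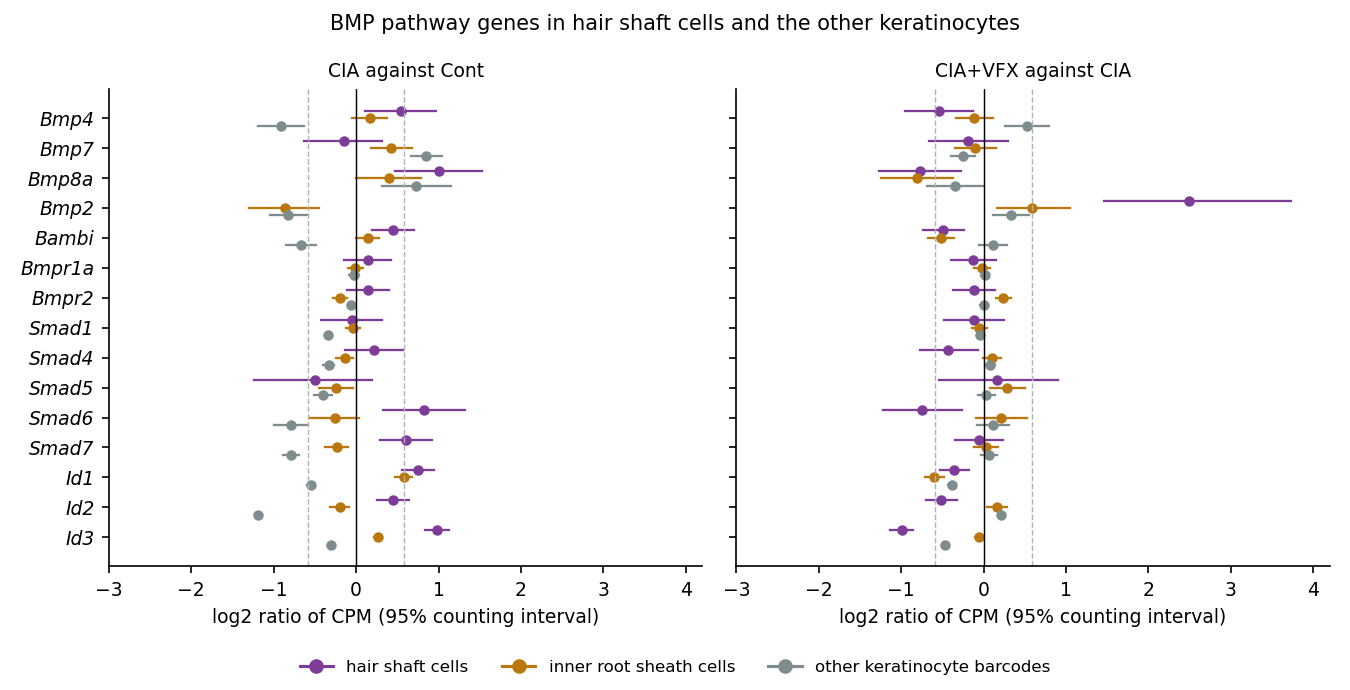
Log2 ratio with its 95% counting interval for genes of the BMP list, CIA against Cont and CIA+VFX against CIA, in hair shaft cells (purple), inner root sheath cells (orange) and other keratinocyte barcodes (grey), with dashed lines at 1.5-fold. Id3 in the shaft cells stands at 0.98 in the first contrast and -1.0 in the second, while its sheath values are 0.26 and -0.05.

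Several regulators of shaft cells were likewise highest in CIA. Ovol1, a repressor that pushes epithelial cells out of the cycle, stood at 134, 263 and 172 CPM (log2 ratios 0.97, 0.68 to 1.25, then -0.61). Dlx3, a homeobox factor downstream of Wnt and BMP signals in the shaft, stood at 149, 244 and 180 CPM (0.71, then -0.44). In inner root sheath cells Ovol1 had a log2 ratio of -0.33 and Dlx3 one of 0.60, so the Dlx3 difference was found in both. Of the 20 measured transcription factors of the bulb, 4 were at least 1.5-fold higher and 2 lower in CIA, with a median of 0.16, and the lowest were Foxq1 and Prdm1. Ccnd1, the cyclin that opens the cell cycle, stood at 53.4, 122 and 77.1 CPM (1.19, then -0.66). Hes1, a Notch target, stood at 119, 191 and 153 CPM (0.69, then -0.32), but its first ratio was -0.26 among members with at least 50 keratin UMIs.

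Outside the chemokines, the highest log2 ratio among the genes named by the rule was that of Selenbp1, a selenium-binding methanethiol oxidase, at 99.7, 329 and 183 CPM. Its ratio was 1.72 (1.43 to 2.01) for CIA against Cont and -0.84 (-1.08 to -0.60) for CIA+VFX against CIA, and it was close to absent from the sheath, at 3.63, 4.95 and 3.89 CPM. It was higher in CIA both in cortex cells (36.5, 207 and 86.8 CPM) and in cells of neither kind (132, 389 and 291 CPM). The kinesin Kif13b (49.9, 160 and 97.1 CPM), the metallothionein Mt2 (96.2, 299.4 and 158 CPM), the planar polarity gene Prickle1 (44.6, 119 and 88.4 CPM), the auxilin Dnajc6 (29.3, 85.4 and 44.5 CPM), Rassf6, Atg4a and Rasl11a completed the highest genes outside the chemokines. Mt2 reversed to -0.38 among members with at least 50 keratin UMIs. The top CIA cell of each gene held 36.2% of Mt2, 34.5% of Atg4a, 29.6% of Rasl11a and 25.4% of Dnajc6 UMIs. For Prickle1, Kif13b, Selenbp1 and Rassf6 it held 25%, 21.2%, 18.5% and 13.2%. Of the 88 Prickle1 UMIs in CIA, 72 lay in its 5 cuticle cells. Among chemokines, Cxcl1 stood at 11.7, 322 and 33.7 CPM with 47.5% of its CIA UMIs in 1 cell, and Cxcl2 at 39.3, 104 and 7.15 CPM with 52% in 1 cell. Cxcl10 was less concentrated, at 106, 238 and 115 CPM.

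Immediate early genes, which cell dissociation can induce, were also higher in CIA. The list had a median log2 ratio of 0.45, with 4 of 19 measured genes at least 1.5-fold higher and 1 lower, and its median in sheath cells was 0.13. Fos stood at 898, 1475 and 1027 CPM, Ier2 at 238, 408 and 294 CPM and Btg2 at 111, 202 and 152 CPM. The part of dissociation in the values of the BMP genes was not tested.

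The late cortex genes were lower in CIA in the summed counts. Krt31 stood at 530, 261 and 1234 CPM (log2 ratio -1.02, -1.25 to -0.79), Krtap8-1 at 2249, 1130 and 4521 CPM (-0.99, -1.10 to -0.88) and Mt4 at 1406, 684 and 2770 CPM (-1.04). Of the 57 KAP genes, 8 were measured, of which 5 were at least 1.5-fold lower and 1 higher, with a median of -1.0. Of the measured cortex keratins 2 of 4 were lower and none higher (median -0.70). Those 2 were Krt31 and Krt33a, both keratins of the rule, whereas Krt83 (-0.48) and Krt36 (0.24) stayed within 1.5-fold. Of the medulla genes 4 of 5 were lower (median -0.95). A few cells made these values: 50% of the Krt31 and Krt33a UMIs lay in 3, 4 and 3 members, whereas 50% of the Krt35 UMIs lay in 16, 10 and 20. With each cell given equal weight the cortex median was 0.36 and the KAP median -0.07, with Krt31 at 0.34, and thinned to 3000 UMIs a cell Krt31 stood at 0.09. The shares of members with a Krt31 UMI, 22.6% in Cont and 25.8% in CIA, were not lower in CIA, though Krt31 counts toward the rule. Members with at least 300 keratin UMIs numbered 3 in Cont, 1 in CIA and 8 in CIA+VFX, and held 31%, 6.71% and 74.6% of the Krt31 and Krt33a UMIs.

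**Figure D5:**
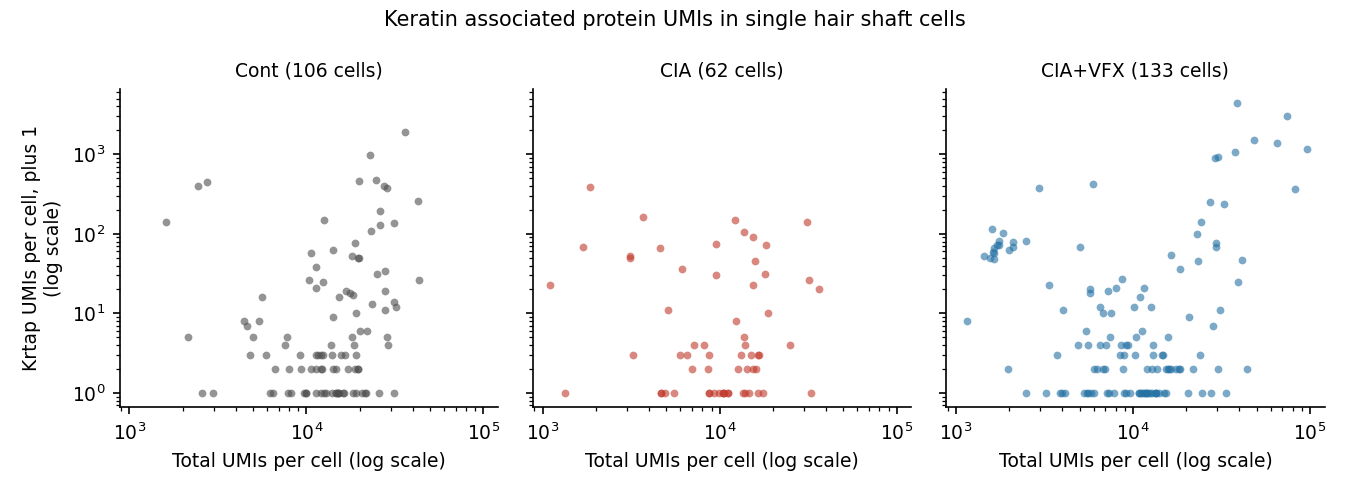
Summed Krtap UMIs + 1 against total UMIs in each hair shaft cell (log axes), with 1 panel per library. The highest Krtap counts lie in a few deep cells of Cont and CIA+VFX, a cluster of shallow cells with many Krtap UMIs stands at the left of CIA+VFX, and the top 4 cells hold 52.1%, 49.2% and 57.0% of the Krtap UMIs of Cont, CIA and CIA+VFX.

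Mitochondrially encoded transcripts were lower in CIA. Of 13 measured genes 5 were at least 1.5-fold lower and none higher, with a median log2 ratio of -0.51, and the sheath cells had a median of -0.48, so the difference was shared by both. mt-Atp6, a subunit of ATP synthase, stood at 4319, 2364 and 4813 CPM (-0.87, then 1.03), and mt-Nd3, a subunit of complex I, at 86.8, 14.9 and 58.2 CPM (-2.54, then 1.97). The median mitochondrial share of a member was 2.74%, 2.02% and 3.18%. The rule set an upper limit on this share.

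Among the other lists of CIA against Cont, cornified envelope genes had a median of -0.83 (0 higher and 2 lower of 3) and wound and stress keratinocyte genes one of -0.60 (2 and 5 of 8). Wnt genes had a median of 0.04 (2 higher and none lower of 22), Notch genes 0.29 (2 and 1 of 8), hedgehog genes -0.09 (0 and 1 of 6), growth factor genes 0.21 (1 and 0 of 9), desmosome genes -0.08 (0 and 2 of 15) and cuticle genes 0.12 (0 and 1 of 4). Genes of the p53 response had a median of -0.10 (2 higher and 3 lower of 18), and Cdkn1a, the p53 target that halts the cycle, stood at 861, 998.6 and 882 CPM. Apoptosis genes had a median of -0.15 (1 and 1 of 11), redox genes 0.23 (2 and 1 of 19), chaperones 0.09 (none of 21), glycolysis genes 0.02 (none of 11), S phase genes -0.04 (3 and 1 of 11) and G2/M genes -0.03 (1 and 3 of 17). These lists held members on both sides, and Ccnd1 (above) was higher in CIA. Of the 10 genes lowest in CIA by the naming rule, most rested on 1 cell each: the top Cont cell of the gene held 91.0% of Fabp4, 98.2% of Ccl21a, 94% of Il6, 76.7% of Akap12 and 68.5% of Tchh UMIs. The more spread of them were Maml2, a Notch coactivator (62.8, 12.2 and 53.7 CPM, 28.0% in 1 cell), and Timp3, a protease inhibitor (68.1, 17.6 and 53.7 CPM, 30.2%).

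In CIA+VFX against CIA the late cortex genes were higher, and Id3, Bmp8a and Smad6 of the BMP list lower. Over 6491 measured genes, 661 (10.2%) stood 1.5-fold or more above CIA and 376 (5.79%) as far below it. Of the 15 measured BMP genes, 3 were at least 1.5-fold lower (Id3, Bmp8a and Smad6) and 1 higher (Bmp2), with a median log2 ratio of -0.35, against 0.01 in the sheath and 0.03 in other keratinocyte barcodes. This contrast and that of CIA against Cont share the CIA library, so 1 level in CIA enters both.

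The cortex keratins had a median log2 ratio of 2.36 (5 higher and 1 lower of 8) and the KAPs one of 1.99 (7 and 1 of 11). Of these cortex keratins, the higher Krt31 and Krt33a and the lower Krt86 belong to the rule. Krt31 had 2.24 (2.03 to 2.46), Krt33a, at 310, 163 and 1148 CPM, had 2.82 (2.55 to 3.10), Krt83, at 183, 131 and 731 CPM, had 2.48, and Krtap11-1, at 384, 190 and 1024 CPM, had 2.43. The share of members with a Krt33a UMI was 18.9%, 17.7% and 32.3%, highest in CIA+VFX. With each cell given equal weight the cortex median was 0.03 and the KAP median 0.41. Krt33b and Krt81 had log2 ratios of 3.03 and 2.57, but 98.8% and 94.9% of their CIA+VFX UMIs lay in 1 cell.

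Mitochondrial genes were higher, with a median of 0.73 and 11 of 13 at least 1.5-fold higher, against a sheath median of 0.48. Wnt genes had a median of -0.11, with 2 higher and 7 lower of 22, a larger part lower than in the BMP list. Transcription factors (median 0.05, 3 and 3 of 21), Notch genes (-0.21, none of 8), immediate early genes (-0.16, 1 and 0 of 19), redox genes (-0.10, 1 and 4 of 19), desmosome genes (0.16, 3 and 0 of 17), p53 response genes (0.19, 3 and 2 of 17), apoptosis genes (0.05, 2 and 1 of 12), chaperones (0.00, 1 and 0 of 21) and G2/M genes (0.00, 1 and 1 of 21) had medians on both sides of 0. Among the genes lowest in CIA+VFX were Ndrg1, a stress and differentiation gene (158, 286 and 121 CPM, -1.24), Ndrg3 (45.8, 81.3 and 32.7 CPM, -1.31), the protocadherin Pcdh19 (113, 157 and 65.9 CPM, -1.25), the serine protease Htra1 (31.1, 65.0 and 28.1 CPM, -1.21), the semaphorin Sema4d (48.7, 77.2 and 33.7 CPM, -1.20) and Phlda2 (140, 221 and 99.6 CPM, -1.15). Each of these was highest in CIA and lowest in CIA+VFX. Of the 10 genes highest in CIA+VFX by the naming rule, 7 were epidermal (Krt77, Krt1, Krt10, Spink5, Calm4, Krtdap and Ly6d) and the others were Nckap5, Soat1 and Tchh, the trichohyalin of inner root sheath and medulla. With them stood the list of cornified envelope genes, with a median of 6.08 (9 of 9 higher). Krt10 showed how narrow this was: it had a UMI in 23.6%, 25.8% and 27.1% of members, and 1 cell held 75.4% of its CIA+VFX UMIs.

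In CIA+VFX against Cont the late cortex genes and the epidermal cornified genes were higher in the summed counts. Of 7346 measured genes, 490 (6.67%) stood 1.5-fold or more above Cont and 346 (4.71%) as far below it. Cortex keratins had a median log2 ratio of 2.0 (6 higher and none lower of 7) and KAPs 1.21 (8 and 1 of 10), with Krt31 at 1.22 (1.11 to 1.33), Krt83 at 2.0 and Krtap8-1 at 1.01 (0.95 to 1.06). Of the 6 higher keratins, Krt31, Krt33a and Krt34 belong to the rule, and Krt33b and Krt81 had most of their CIA+VFX UMIs in 1 cell. The remaining keratin was Krt83. Within the cortex cells Krtap8-1 stood at 9046 CPM in Cont and 11208 CPM in CIA+VFX, and over all members at 2249 and 4521 CPM. Cortex cells were 18.9% and 31.6% of members, and 18% and 22.8% of those with at least 3000 UMIs. The 3 and 8 members with at least 300 keratin UMIs held 31.4% and 66.4% of the Krtap UMIs. The part of the mix of cells in these values was not tested. In members with no UMI of Krt31 or Krt33a, a choice that removes most late cells, the KAP median was -0.55 and the ratio of Krtap8-1 -0.37. Krt32, a cuticle keratin, was lower (-2.07, -2.69 to -1.48), with 60.2% of its Cont UMIs in 1 cell.

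The BMP list lay at a median of 0.00, with 1 gene higher (Bmp2, log2 ratio 1.41) and none lower of 15. Other lists also had medians near 0: mitochondrial genes 0.16, transcription factors 0.22, Wnt genes 0.05 (2 higher and 5 lower of 24), immediate early genes 0.05, chaperones 0.08, p53 response genes 0.00 (3 higher of 23), desmosome genes -0.06 and G2/M genes 0.02 (5 higher and 1 lower of 28). The cornified list was again high (5.41, 9 of 9), but few cells made up the epidermal genes. The top CIA+VFX cell of each gene held 91.1% of Krt77, 75.4% of Krt10, 71.6% of Spink5 and 58.9% of Krtdap UMIs. Selenbp1 (0.88, 0.61 to 1.15), Kif13b (0.96, 0.58 to 1.35) and Smad7 (0.54, 0.29 to 0.79) stood above Cont in CIA+VFX, whereas Id3, Bmp4 and Bambi did not. Among the lowest genes were Cd74, a leukocyte transcript whose log2 ratio of -1.67 was -0.20 after subtraction of 5% free RNA (86.2, 56.9 and 27.1 CPM), Cpeb3, which binds messenger RNA (58.7, 58.3 and 20.4 CPM), the urokinase receptor Plaur (54.0, 21.7 and 22.0 CPM), the ceramidase Acer3 (71.6, 58.3 and 29.6 CPM) and Mir22hg (76.3, 50.1 and 34.2 CPM).

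Genes of monoamine handling, the system venlafaxine acts on, were close to absent from the shaft cells. Of 23 such genes, the enzyme gene Maoa alone was measured in CIA against Cont, at 19.4, 24.4 and 26.6 CPM (log2 ratios 0.33 and 0.12). The serotonin transporter Slc6a4 stood at 1.76, 1.35 and 0 CPM, and the noradrenaline transporter Slc6a2 at 0, 0 and 0.51 CPM. Neither transporter was detectable above a few UMIs at this depth.

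The share of shaft cells with G2/M transcripts was below that of the inner root sheath in every library, with counting intervals apart. Against leukocyte barcodes, which also divide, it was higher in Cont and CIA+VFX and lower in CIA. Those intervals were apart in Cont alone. After thinning to 2000 UMIs, 78.1% (69.0 to 85.6), 65.5% (51.9 to 77.5) and 76.7% (68.1 to 83.9) of shaft cells had at least 2 G2/M UMIs, against 62.2%, 68.9% and 72.7% of leukocyte barcodes and 92.6%, 92.3% and 92.1% of inner root sheath cells. Unthinned, the shaft shares were 99.1%, 93.5% and 96.2%. The ratio of thinned shares was 0.839 (0.555 to 1.25) for CIA against Cont and 1.17 (0.794 to 1.76) for CIA+VFX against CIA. Mki67 stood at 66.9, 79.9 and 61.3 CPM and Top2a at 37.5, 50.1 and 55.7 CPM, with no library far from the others.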

How the data were processed

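Single-cell RNA of whole dorsal skin was measured in 3 libraries, 1 per group. The deposited values are raw UMI counts per gene and barcode, written by the authors' run of Cell Ranger 8.0.1 on GRCm39, per the submitters' processing notes, where FastQC 0.11.7 is also listed. Barcodes were selected by the keratin rule given at the start of the report. One keratin of that sum is not analysed here, so 5 were added up, and the number of cells could differ with it. Counts of the selected cells were summed per library and given as CPM. Ratios have an exact conditional binomial interval and shares an exact Clopper-Pearson interval, both at 95%, and a gene at 0 was bounded with 3 counts. A gene was measured at 50 or more UMIs over the libraries compared, and differences of 1.5-fold were counted. The 10 genes named per direction are those of the largest ratio with at least 100 UMIs in both libraries together and 50 CPM in the higher. Members, gene lists and limits were chosen with earlier results of these data known. Doublets were called (2 simulated per cell, 30 neighbours, 0.4% per 1000 barcodes) but kept, and removed as an alternative. Scalings by TMM (edgeR 4.0.16) and by median of ratios (DESeq2 1.42.0) were alternatives, as no count model was fitted. Analyses used Python 3.11.15, numpy 2.4.6, scipy 1.17.1, pandas 2.3.3, scikit-learn 1.9.0 and R 4.3.3. Promoters are from RefSeq, GRCm38.p6. In the last 500 transcript bases, Krt31 and Krt33b shared 38 of 476 words of 25 bases (7.98%), so reads of these 2 genes may be split with error.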

Additional observations from a re-analysis of the deposited data

Results flagged for a closer look

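Gene lists that went in opposite directions in hair shaft cells and inner root sheath cells of the same libraries deserve a second look. None of these differences between the cell types was tested, as each group is 1 library. For CIA against Cont, the medulla genes had a median log2 ratio of -0.95 in shaft cells and 0.67 in sheath cells, the wound and stress keratinocyte genes -0.60 and 0.69, and the cornified envelope genes -0.83 and 0.99. For CIA+VFX against Cont, the other hair keratins had a median of 1.75 in shaft cells and -1.23 in sheath cells. In the sheath such keratins were low. Krt32, Krt82 and Krt36 stood there at 2.57, 2.46 and 1.70 CPM in Cont and 0.43, 0.32 and 1.84 CPM in CIA+VFX. In the shaft cells of CIA+VFX, 1 cell held 98.8% of the Krt33b UMIs.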

How the results depend on the processing

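No paired analysis was possible because each group has 1 library, and no replicate could be left out. Of the values recomputed for named genes under the alternatives, 2340 stayed within the counting interval of the reported value (48 of them with the other sign). Another 463 left it (52 of them with the other sign), and 29 ratios of 1.5-fold or more reversed. Of those for summary results, 306 moved by less than 1.5-fold or the counting interval, 46 by more, and 8 reversed. The share ratios ranged over 9 alternatives from 0.390 to 0.594 (CIA against Cont), 1.35 to 2.46 (CIA+VFX against CIA; 1.35 with keratinocyte barcodes as the base) and 0.801 to 1.2 (CIA+VFX against Cont). The BMP median ranged over 17 alternatives from 0.36 to 0.48 (CIA against Cont) and from -0.41 to -0.25 (CIA+VFX against CIA), Id3 from 0.38 to 1.15 and -1.09 to -0.49, and Selenbp1 (CIA against Cont) from 1.37 to 2.01. The direction of the cortex genes in CIA against Cont depended on how cells were weighted. The causes were not tested.

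With a mean over cells, the KAP medians were -0.073, 0.41 and 0.48 (CIA against Cont, CIA+VFX against CIA and CIA+VFX against Cont, here called contrasts A, B and C) and the cortex keratin medians 0.36, 0.028 and 0.83, with Krt31 at 0.34, Krt33a at 0.27 and Krtap7-1 at 0.25 in A, and Krt33b at -0.15, Krt81 at -0.38 and Krt87 at -0.15 in B. Counts were 534 higher in A, 583 lower in B and 532 lower in C. Thinned to 3000 UMIs, the calls were 148 higher and 173 lower, 178 and 150, and 152 and 131, the KAP medians -0.37 and 1.13 in A and B, the cortex medians 0.56, 0.70 and 1.22, and in A Krt31 0.091, Krt33a 0.48 and Krtap11-1 0.040. With at least 20 UMIs a gene, the calls were 823 and 1160, 1403 and 820, and 1028 and 793, the KAP medians 0.10 and 1.19, and the cortex median in A 0.39. With at least 200 UMIs a gene, they were 66 and 97, 143 and 67, and 115 and 52, and the KAP median in C was 1.83.

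In members with no UMI of Krt31 and Krt33a, an alternative added after seeing the data, the KAP medians were -0.16, 0.21 and -0.55 and the cortex medians 0.35, -0.38 and -0.023, with Mt4 at 0.67 in A, Krtap8-1 at -0.21 and -0.37 in B and C, and 233 genes lower in B. Without the top cell of each gene, also added, 201 genes were higher in A and 218 lower in B. Of the genes called in the report, this kept 193 of 355 higher and 410 of 516 lower in A, 510 of 661 and 211 of 376 in B, and 342 of 490 and 258 of 346 in C. Leaving out members over 50000 UMIs, also added, kept 441 of 661 and 246 of 376 in B and 337 of 490 and 243 of 346 in C.

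With at least 50 keratin UMIs, 323 genes were lower in A, Hes1 stood at -0.26 and Mt2 at -0.38 there, Cxcl1 at 2.82 in B, and the KAP medians were 2.82 and 2.25 in B and C. With fewer than 5 sheath keratin UMIs the KAP median in C was 1.82. With 1000 or more genes and a mitochondrial share up to 8%, the KAP and cortex medians in B were 2.94 and 3.37. With called doublets removed, the cortex medians were -0.043 in A and 3.15 in C. Genes held by single cells reversed: Dusp14 in B stood at 0.57 (1000 or more genes) and 0.15 (no top cell). Il6 in C stood at 0.93, 2.54 and 3.04 (at least 5, 20 and 50 keratin UMIs) and 2.28 (fewer than 5 sheath UMIs). Fabp4 in C stood at 1.38 and 2.56 (at least 20 and 50), 1.96 (fewer than 5 sheath UMIs), 0.52 (no doublets) and 0.39 (no top cell), and in A at 0.49 (at least 50). Ccl21a in C stood at 3.81 (no doublets) and 3.74 (no top cell).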
